A study of Mus musculus with 2 samples.

Results

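The 9 microRNA (miRNA) hairpin genes of the miR-106b-25 cluster (Mir106b, Mir93 and Mir25) and of the miR-106a-363 cluster (Mir106a, Mir18b, Mir20b, Mir19b-2, Mir92-2 and Mir363) were examined in embryonic mouse kidney. They were chosen by name, as the paralogues of the miR-17-92 cluster, and not by a rule on their counts, though earlier results of these data were known. Each was found through its Ensembl identifier among the 1973 miRNA genes of the deposited count tables. There was 1 group, kidney of B6NCrl embryos at 14.5 days of gestation, with no genotype or treatment to compare, and it held 2 biological replicates of 2 kidneys each, taken on different days. The labels name a single pup for each replicate and also pooled sexes with a donor identifier common to both, so the number of embryos behind a replicate is not settled. A gene was called detected from 10 counts upward in both replicates, which all 9 members and 345 of the 1973 genes reached.

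These clusters arose by duplication. Each is transcribed as a single long RNA, from which the nuclease Drosha cuts hairpins that Dicer trims to mature miRNAs of little more than 20 bases. A mature miRNA finds its target messages mainly through its seed, bases 2 to 8, so genes with the same seed share most of their predicted targets. The miR-17 seed family is known for repressing inhibitors of the cell cycle such as Cdkn1a, and the miR-25/miR-92/miR-363 family for repressing the pro-apoptotic gene Bcl2l11 (Bim). In the developing mouse kidney the miR-17-92 cluster is known to sustain the proliferation of nephron progenitors. The miR-106b-25 cluster lies inside Mcm7, which encodes a subunit of the replicative DNA helicase.

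The mature sequences show how the 9 genes divide into seed families, and which of them reads can tell apart. All 9 had an arm with a family seed in the RefSeq set for GRCm38.p6, given here 5′ to 3′ with the seed in capitals. The miR-17 seed is carried by 4 members, here beside miR-17-5p of the miR-17-92 cluster (Mir17, chromosome 14, + strand).
miR-106b-5p (Mir106b, chromosome 5, - strand): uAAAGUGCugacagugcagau
miR-93-5p (Mir93, chromosome 5, - strand): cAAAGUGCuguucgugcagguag
miR-106a-5p (Mir106a, chromosome X, - strand): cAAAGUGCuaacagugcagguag
miR-20b-5p (Mir20b, chromosome X, - strand): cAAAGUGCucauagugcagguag
miR-17-5p (Mir17): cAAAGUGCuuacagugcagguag
The miR-25/miR-92/miR-363 seed is carried by 3 members.
miR-25-3p (Mir25, chromosome 5, - strand): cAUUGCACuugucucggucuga
miR-92a-3p (Mir92-2, chromosome X, - strand): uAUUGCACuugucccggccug
miR-363-3p (Mir363, chromosome X, - strand): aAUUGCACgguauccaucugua
The miR-18 and miR-19 seeds are carried by 1 member each, both on chromosome X.
miR-18b-5p (Mir18b, - strand): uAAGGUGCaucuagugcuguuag
miR-19b-3p (Mir19b-2, - strand): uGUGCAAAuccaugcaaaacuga

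Outside the seed the members of the miR-17 family differ by few bases, and those of the miR-25/miR-92/miR-363 family by few or many. Counted from the 5′ end, miR-106a-5p differs from miR-17-5p by U10A alone, and miR-20b-5p differs from it by U10C and C12U. miR-93-5p differs from miR-17-5p by U10G, A11U, C12U and A13C. miR-106b-5p is 2 bases shorter and differs by C1U, U10G and G20A. miR-18b-5p differs from miR-18a-5p, the product of Mir18 in the miR-17-92 cluster, by A18U and A20U. miR-25-3p differs from miR-92a-3p by U1C, C14U and C18U over the 21 bases compared, whereas miR-363-3p differs from miR-92a-3p at 11 of 21 bases, none of them in the seed. The mature miR-19b-3p and miR-92a-3p are identical to those of Mir19b-1 and Mir92-1 in the miR-17-92 cluster. Mir19b-2 shares a stretch of 25 bases with the Mir19b-1 hairpin, and Mir92-2 shares 22 bases with Mir92-1, and both stretches hold the whole mature sequence. Reads that mapped to several places were 28.3% of all reads in replicate 1 and 27.5% in replicate 2 and were tallied apart from the genes, and a read that lies within these stretches has more than 1 place, so the counts of Mir19b-2 and Mir92-2 are uncertain. The other 7 members share at most 17 bases in a row with any other annotated hairpin. This counts exact runs only, and whether reads of the nearly identical paralogues above were misplaced was not tested.

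On mm10 the miR-106b-25 cluster spans 498 bases of the minus strand of chromosome 5 (138165321 to 138165818), in the order Mir106b, Mir93, Mir25. All 3 hairpins lie in intron 13 of the protein-coding transcript Mcm7-201 and in intron 8 of the shorter Mcm7-208. Mir93 and Mir25 are also inside an exon of the retained-intron transcript Mcm7-202. The miR-106a-363 cluster spans 875 bases of the minus strand of chromosome X (52741693 to 52742567), in the order Mir106a, Mir18b, Mir20b, Mir19b-2, Mir92-2, Mir363. Of the Mir106a hairpin 5 bases overlap an exon of Kis2, a non-coding gene, and the other 5 hairpins lie in no annotated host gene. The hairpins of the Mcm7 cluster were richer in G and C, at 57.3% in Mir106b, 55.7% in Mir93 and 63.1% in Mir25, than those of the X-linked cluster, at 38.1% to 47.3%.

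**Figure D1:**
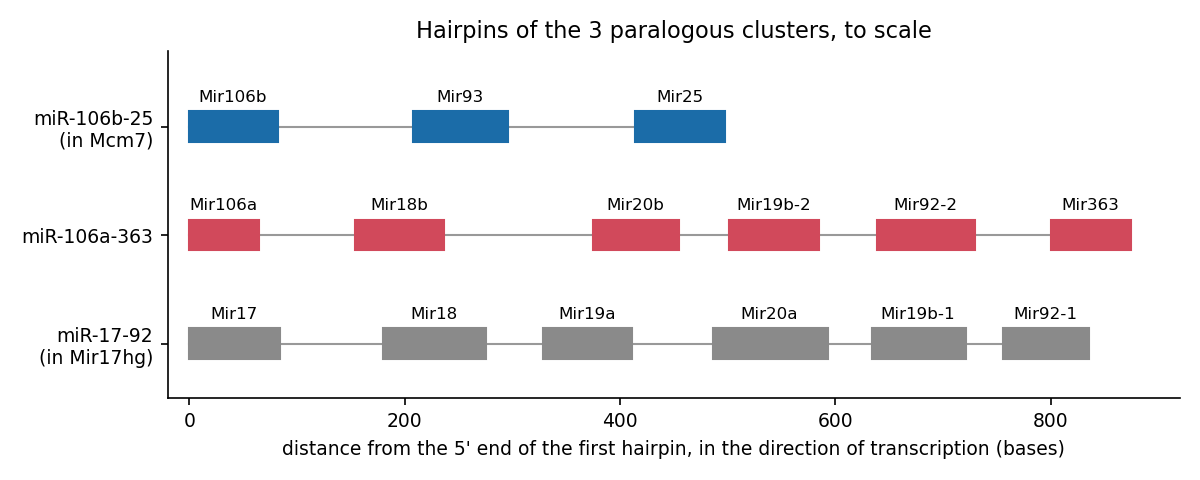
Hairpins (boxes) of the miR-106b-25, miR-106a-363 and miR-17-92 clusters drawn to scale, with the distance in bases from the 5′ end of the first hairpin on the x axis. The Mcm7 cluster holds 3 hairpins in 498 bases, and the others hold 6 hairpins each in 875 and 836 bases.

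Levels are given as CPM, a gene's counts in every 1000000 own-strand counts of all miRNA genes. Replicate 1 had 5202588 such counts and replicate 2 had 3683978. A count is a read on a hairpin, and the 2 arms of a hairpin are not separated. CPM is not divided by length, since a read covers a mature miRNA and not the hairpin, whose lengths ran from 65 bases in Mir106a to 91 in Mir92-2. In whole tissue, fewer cells that express a miRNA and less of it per cell cannot be told apart. Intervals are 95% exact Clopper-Pearson intervals that cover counting error only, since amplified reads without molecular identifiers are not separate molecules.

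The Mcm7 cluster was abundant, and nearly all of its reads came from its miR-17-seed genes. Mir93 had 9513 CPM in replicate 1 (95% interval 9430 to 9597) and 9806 CPM in replicate 2 (9705 to 9907), rank 20 of the 345 detected genes by mean CPM. Mir106b had 7441 CPM in replicate 1 (7367 to 7515) and 8331 CPM in replicate 2 (8238 to 8424), rank 23. Mir25, the miR-92-seed gene at the 3′ end of the cluster, had 904 CPM in replicate 1 (879 to 930) and 1213 CPM in replicate 2 (1178 to 1249), rank 87. Both replicates placed Mir93 above Mir106b and Mir106b above Mir25, and the ranges of the 3 genes did not overlap. The step between Mir93 and Mir106b was small, a difference of log2(CPM + 1) of 0.29 ± 0.08 (SD, n = 2), while Mir106b exceeded Mir25 by 2.91 ± 0.18. Mir93 gave 52.0% ± 1.83 of the cluster's counts (SD, n = 2), Mir106b 42.4% ± 0.981 and Mir25 5.67% ± 0.854.

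In uniquely placed reads all 6 genes of the X-linked cluster were below all 3 of the Mcm7 cluster, and they ranged from rank 125 to rank 287 of the 345 detected genes. Mir106a, its 5′-most gene, had 299.7 CPM in replicate 1 (95% interval 285 to 315) and 308 CPM in replicate 2 (290.4 to 327), rank 125. Mir363, its 3′-most gene, had 197 CPM in replicate 1 (186 to 210) and 231 CPM in replicate 2 (215 to 247), rank 143. Mir20b had 207 CPM in replicate 1 (195 to 219.6) and 178 CPM in replicate 2 (164 to 192), rank 147. Mir106a was above Mir363 and Mir20b in both replicates. Mir363 and Mir20b did not keep their order, with Mir20b above Mir363 in replicate 1 and below it in replicate 2, so their levels did not differ beyond the spread between replicates. Mir92-2 had 152 CPM in replicate 1 (142 to 163) and 114.6 CPM in replicate 2 (104 to 126), rank 163, from reads that could be placed uniquely.

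The remaining genes of the X-linked cluster had the lowest counts of the 9. Mir18b had 27.7 CPM in replicate 1 (23.3 to 32.6) and 19.3 CPM in replicate 2 (15.1 to 24.3), from 144 and 71 counts. Mir19b-2 had 7.69 CPM in replicate 1 (5.49 to 10.5) and 8.69 CPM in replicate 2 (5.94 to 12.3), from 40 and 32 counts. It loses reads of the mature sequence that it shares with Mir19b-1, so its true level may be higher. Every step down the order Mir93, Mir106b, Mir25, Mir106a, Mir363, Mir20b, Mir92-2, Mir18b, Mir19b-2 had ranges that did not overlap between the 2 replicates, apart from the step between Mir363 and Mir20b. The places of Mir92-2 and Mir19b-2 in this order, and the shares that follow, rest on uniquely placed reads only. Within the cluster Mir106a gave 34.7% ± 1.60 of counts (SD, n = 2), Mir363 24.5% ± 3.34, Mir20b 21.9% ± 1.79, Mir92-2 15.2% ± 2.64, Mir18b 2.67% ± 0.609 and Mir19b-2 0.937% ± 0.105.

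**Figure D2:**
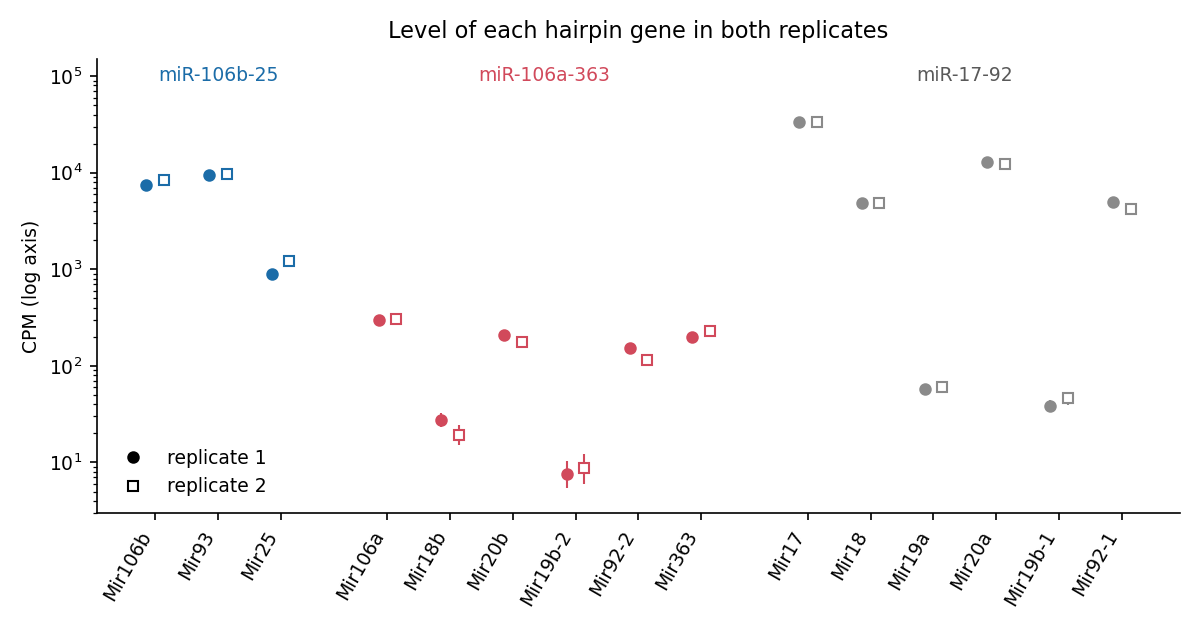
CPM on a log axis for each hairpin gene of the miR-106b-25, miR-106a-363 and miR-17-92 clusters, in the order of transcription, with replicate 1 as filled circles, replicate 2 as open squares and 95% exact binomial intervals as bars, most of them smaller than the symbols. All 3 genes of the Mcm7 cluster lie above all 6 of the X-linked cluster, and Mir19b-2 is lowest at 7.69 and 8.69 CPM, from uniquely placed reads.

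Set against each other as sums of uniquely placed reads, the Mcm7 cluster exceeded the X-linked cluster about 20-fold. Mir19b-2 and Mir92-2 lose reads of mature sequences that Mir19b-1 and Mir92-1 also hold. Through this loss the X-linked sum may be too low, and the ratio too high, by an amount that is not known. Misread molecules of nearly identical paralogues, such as Mir17 for Mir106a, would bias both the other way. Whether such reads were misplaced was not tested. In replicate 1 the sums were 92906 counts for the Mcm7 cluster and 4638 for the X-linked cluster, a ratio of 20.0 (log2 ratio 4.32, 95% exact interval 4.28 to 4.37). In replicate 2 they were 71285 and 3164 counts, a ratio of 22.5 (log2 ratio 4.49, 4.44 to 4.55). The mean log2 ratio was 4.41 ± 0.12 (SD, n = 2). As a difference between the clusters' mean log2(CPM + 1) per member, which gives the low Mir18b and Mir19b-2 the same weight as the other members, it was 5.67 ± 0.23. The Mcm7 cluster held 1.79% of all counts in replicate 1 and 1.94% in replicate 2, against 0.0891% and 0.0859% for the X-linked cluster. With 2 libraries a sign-flip permutation test cannot give a p below 0.5, so no p is given for these or the following differences between genes. The SD does not show a bias that affects a miRNA equally in the 2 libraries.

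The gap between the clusters was much wider for the miR-17 seed than for the miR-92 seed. The summed counts of Mir93 and Mir106b were 33.5 times those of Mir106a and Mir20b in replicate 1 and 37.3 times in replicate 2, a mean log2 ratio of 5.14 ± 0.11 (SD, n = 2). Mir25 had 2.59 times the summed counts of Mir92-2 and Mir363 in replicate 1 and 3.51 times in replicate 2, a mean log2 ratio of 1.59 ± 0.31. Without Mir92-2, whose count is uncertain, the mean log2 ratio of Mir25 over Mir363 was 2.30 ± 0.14, still below that of the miR-17 seed. Genes with the miR-17 seed gave 94.3% ± 0.854 of the Mcm7 cluster's counts, against 56.7% ± 0.192 in the X-linked cluster (SD, n = 2). Whether misread molecules of Mir17 or Mir20a add to the counts of Mir106a and Mir20b was not tested. If they do, the miR-17-seed ratio is too low and the X-linked share too high.

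Member by member, every gene of the Mcm7 cluster was above its X-linked counterpart in uniquely placed reads in both replicates. On the log2(CPM + 1) scale Mir106b exceeded Mir106a by 4.63 in replicate 1 and 4.75 in replicate 2, a mean of 4.69 ± 0.09 (SD, n = 2). Mir93 exceeded Mir20b by 5.52 and 5.78, a mean of 5.65 ± 0.19, and exceeded Mir106a by 4.98 and 4.99. Mir25 exceeded Mir363 by 2.19 and 2.39, a mean of 2.29 ± 0.14. It exceeded Mir92-2 by 2.56 and 3.39, a mean of 2.98 ± 0.59, the widest spread of the 5 pairs. Mir92-2 loses reads of the mature sequence that it shares with Mir92-1, so the size and sign of this difference are not settled. Each of the 5 mean differences was larger than its SD, which does not show the loss of shared reads from Mir92-2.

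**Figure D3:**
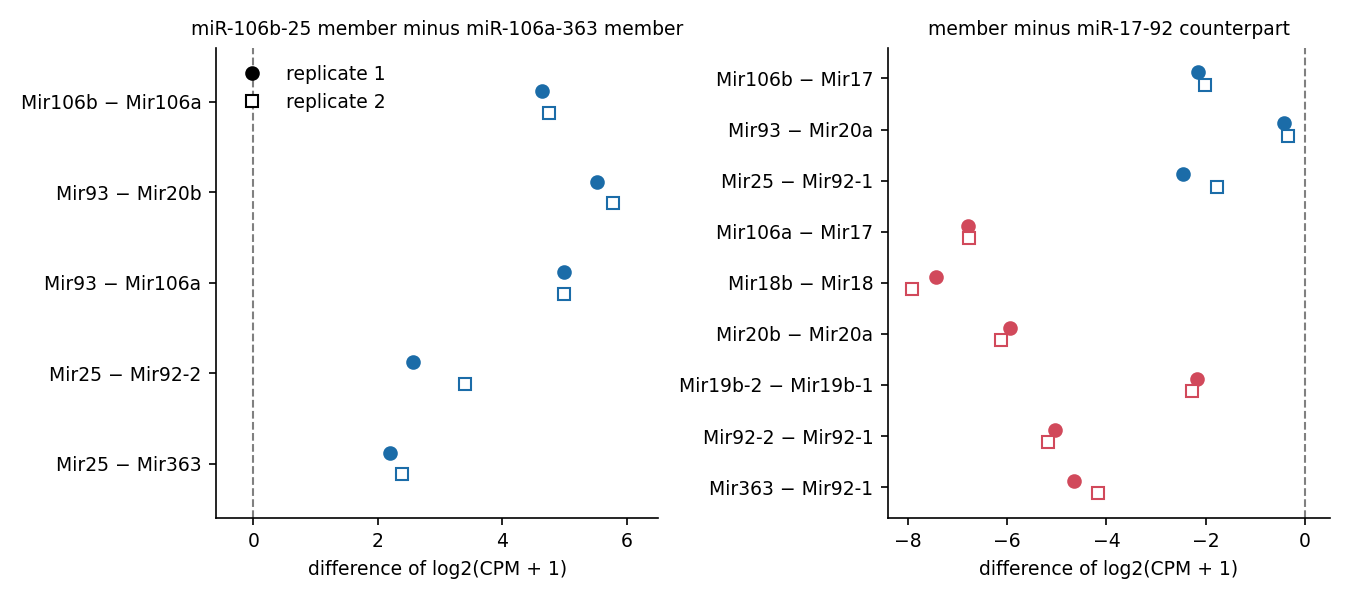
Difference of log2(CPM + 1) between paralogous genes, in replicate 1 (filled circles) and replicate 2 (open squares), with no difference at the dashed line. Left, genes of the miR-106b-25 cluster exceed their counterparts in the miR-106a-363 cluster by 2.19 to 5.78. Right, every member lies below its counterpart in the miR-17-92 cluster, from -0.33 for Mir93 against Mir20a to -7.91 for Mir18b against Mir18. Values of Mir92-2, Mir92-1, Mir19b-2 and Mir19b-1 rest on uniquely placed reads only.

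Both clusters were below the miR-17-92 cluster of chromosome 14, taken from its host gene Mir17hg, whose share of all counts was 5.61% and 5.52% in replicates 1 and 2. Of the counts of the 3 clusters together, the Mcm7 cluster gave 23.8% in replicate 1 and 25.6% in replicate 2, and the X-linked cluster gave 1.19% and 1.14%. These shares rest on uniquely placed reads. The other clusters lose reads of the mature sequences they share, so the Mcm7 cluster's share may be too high. Mir93 came closest to its counterpart there, at 74.3% of the level of Mir20a in replicate 1 and 79.3% in replicate 2, a log2 difference of -0.38 ± 0.07 (SD, n = 2). Mir106b stood at 22.3% and 24.7% of Mir17, and Mir25 at 18.1% and 29.1% of Mir92-1. Mir92-1 loses reads of the mature sequence that it shares with Mir92-2, so these last percentages may be too high.

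The X-linked genes were a small fraction of their chromosome 14 counterparts. Mir106a was at 0.899% of the level of Mir17 in replicate 1 and 0.914% in replicate 2, and differed from it by -6.78 ± 0.02 (SD, n = 2) on the log2(CPM + 1) scale. The mature sequences of this pair differ by the single substitution U10A given above, and whether misread Mir17 molecules add to the Mir106a count was not tested. Mir20b was at 1.61% and 1.44% of Mir20a, and Mir18b at 0.563% and 0.394% of Mir18. Mir92-2 was at 3.05% and 2.75% of Mir92-1, and Mir19b-2 at 20.0% and 18.8% of Mir19b-1. In these last 2 pairs both genes lose reads of the shared mature sequence, so the ratios describe uniquely placed reads only.

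By seed family, the Mcm7 cluster gave a sizeable share of the miR-17 family and the X-linked cluster almost none. Of the counts of the 6 miR-17-seed genes, Mir93 and Mir106b gave 26.7% in replicate 1 (95% interval 26.5 to 26.8) and 28.0% in replicate 2 (27.9 to 28.2). Mir106a and Mir20b gave 0.796% in replicate 1 (0.766 to 0.827) and 0.751% in replicate 2 (0.716 to 0.786). The rest came from Mir17 and Mir20a. Whether misread molecules of Mir17 and Mir20a add to the share of Mir106a and Mir20b was not tested. In the miR-18 family Mir18b gave 0.560% and 0.393% of counts, and in the miR-19 family Mir19b-2 gave 7.43% and 7.57%, beside Mir19a at 57.3 and 59.99 CPM and Mir19b-1 at 38.4 and 46.1 CPM. Mir19b-1 and Mir19b-2 lose reads of their shared mature sequence, while Mir19a has no such stretch. The miR-19 shares therefore describe uniquely placed reads only and not the whole family.

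The miR-25/miR-92/miR-363 family drew on more loci. Mir25 gave 13.6% of its counts in replicate 1 and 19.8% in replicate 2, and Mir92-2 and Mir363 together gave 5.25% and 5.63%. These shares rest on uniquely placed reads, since Mir92-1 and Mir92-2 lose reads of their shared mature sequence. Mir92-1 of the miR-17-92 cluster gave most of the rest, with 4988 and 4169 CPM in replicates 1 and 2. Of the family's genes outside the paralogous clusters, Mir32 and Mir92b were close to Mir363 in level. Mir32, in an intron of Tmem245, had 235 and 227 CPM and Mir92b had 182 and 179 CPM. Mir367 had 0 counts in both replicates, and a count of 0 leaves room for a level of 0.577 CPM or 0.814 CPM (3 counts in replicate 1 or 2). Without Mir92-1 and Mir92-2, which share their mature sequence, Mir25 made up 62.6% ± 4.28 of the family's counts (SD, n = 2) and Mir363 12.7% ± 0.372.

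**Figure D4:**
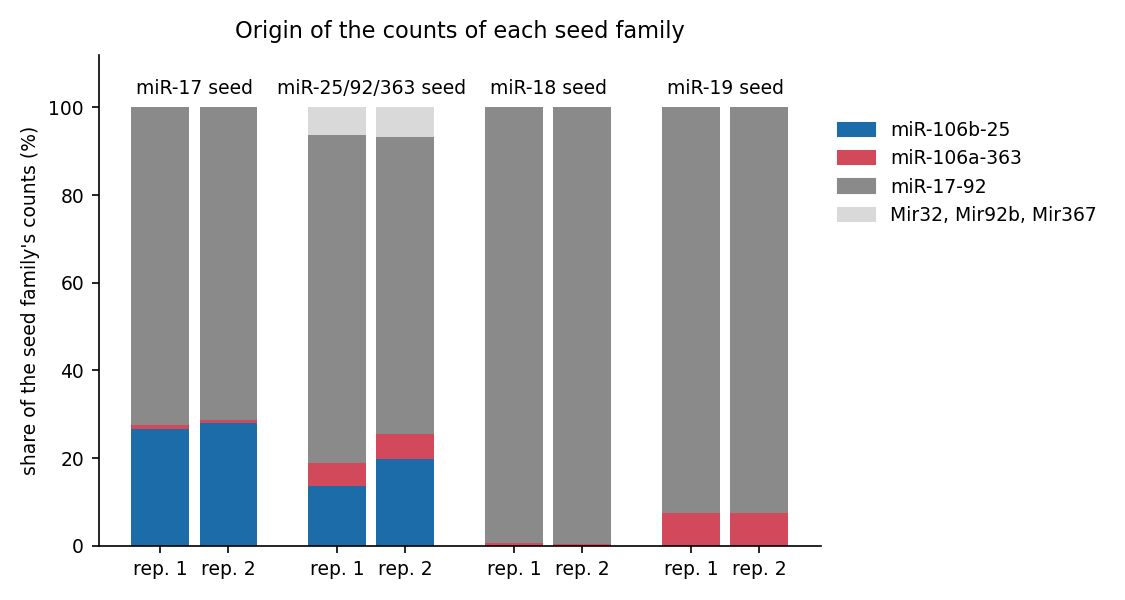
Share of each seed family's counts in percent (y axis), by the origin of the counts, in replicates 1 and 2. The origins are the miR-106b-25, miR-106a-363 and miR-17-92 clusters and the other family genes Mir32, Mir92b and Mir367. The miR-106b-25 cluster gives 26.7% and 28.0% of the miR-17 family and 13.6% and 19.8% of the miR-25/miR-92/miR-363 family, and it has no miR-18 or miR-19 gene. Shares of the miR-19 and miR-25/miR-92/miR-363 families rest on uniquely placed reads only.

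Most of the 9 genes differed a little between the replicates, as did most miRNA genes. The ratio of replicate 1 over replicate 2 was tested for all 345 detected genes by an exact binomial test (two-sided), which allows for counting error alone, and p was adjusted over those genes by the Benjamini-Hochberg method. At an adjusted p below 0.05, 7 of the 9 passed, 3 higher and 4 lower in replicate 1, against 53.9% of all detected genes (27.2% higher and 26.7% lower). None of the 9 also reached a log2 ratio of 1 in size, against 3.19% of all detected genes. By size, the median absolute log2 ratio was 0.22 for the 9 genes and 0.24 for all detected genes. With an assumed coefficient of variation of 0.2, edgeR's exact test passed none of the 9 at an adjusted p below 0.05, against 0.58% of all detected genes. At an unadjusted p below 0.05 it passed 0 of the 9 and 16 of the 345. Estimated from these same 2 libraries as 1 group, the common coefficient of variation was 0.1998. The assumed value thus equals the replicates' own spread, so few genes could pass this test.

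All 3 genes of the Mcm7 cluster were lower in replicate 1, with log2 ratios of -0.43 for Mir25 (95% exact interval -0.49 to -0.37, adjusted p 1.9e-44 in the exact binomial test), -0.17 for Mir106b and -0.05 for Mir93. The ratio of Mir25 was larger in size than those of 75.4% of detected genes. Of the X-linked genes, Mir18b at 0.52 (0.10 to 0.95), Mir92-2 at 0.41 and Mir20b at 0.22 were higher in replicate 1 and Mir363 at -0.23 was lower. Mir106a at -0.04 and Mir19b-2 at -0.18 did not pass. Mir25 and Mir92-1, of the same seed family, moved apart, since Mir92-1 had a log2 ratio of 0.26 and was higher in replicate 1. As sums, the Mcm7 cluster had a log2 ratio of -0.12 and the X-linked cluster one of 0.05.

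**Figure D5:**
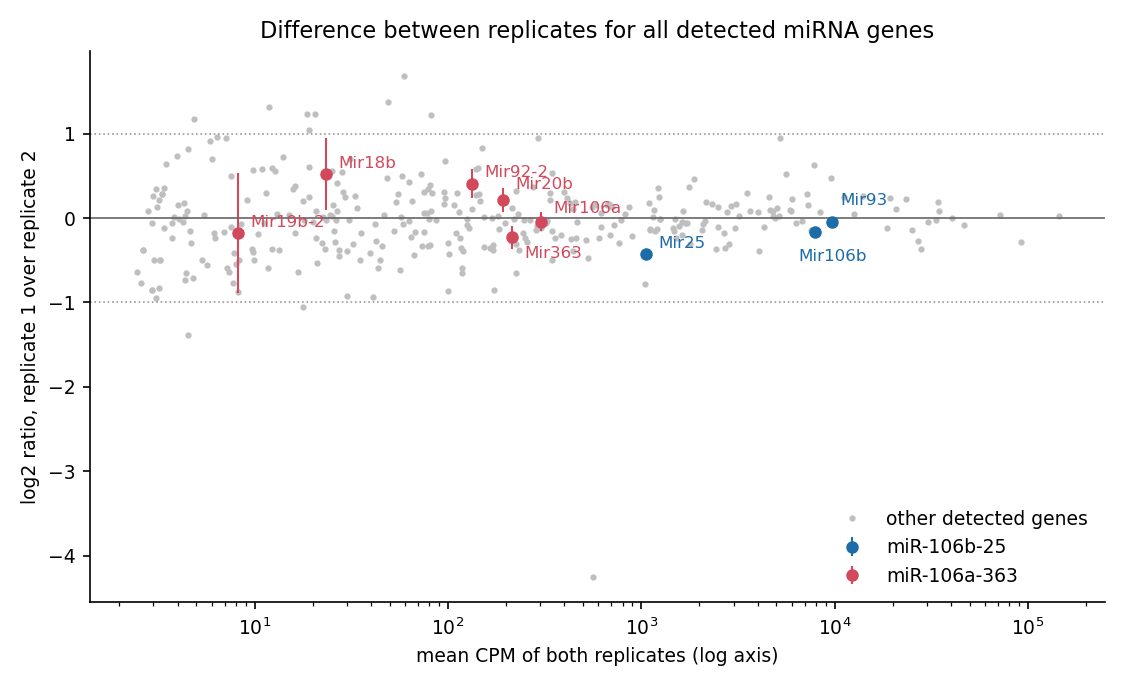
Log2 ratio of replicate 1 over replicate 2 (y axis) against mean CPM on a log axis for the 345 detected genes, with the miR-106b-25 and miR-106a-363 genes named, 95% exact intervals as bars and dotted lines at 1 and -1. The named genes lie between -0.43 and 0.52, within the cloud of other genes.

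Markers listed for kidney epithelium, kidney tubule and endothelium were detected, though no other organ was measured for comparison. All 5 genes of the epithelial miR-200 family (sums of 26800 and 23488 CPM in replicates 1 and 2) and 3 of 4 tubule miRNAs (353 and 490.0 CPM) were detected, as was endothelial Mir126a (45180 and 47759 CPM). The tubule genes did not move together. Mir192 (125 and 224 CPM) and Mir194-2 (71.1 and 129 CPM) were higher in replicate 2, and Mir204 (157 and 136 CPM) was lower. Markers of other tissues were present too. Hepatocyte Mir122 had 56.3 CPM in replicate 1, against 1074 CPM in replicate 2. The erythroid genes Mir451a, Mir144 and Mir486, all 3 detected, summed to 161 and 77.6 CPM in replicates 1 and 2. Of 4 genes listed for leukocytes, not counting Mir142, 3 were detected, with sums of 640 and 591 CPM. Of 2 skeletal muscle genes 1 was detected, with sums of 74.8 and 54.6 CPM. The gonadal Mir202 and Mir142b, listed for leukocytes, had 0 own-strand counts. The part of these differences in the replicate ratios given above was not tested.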

How the data were processed

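Total RNA of 2 replicates of 1 group was made into libraries of RNAs under 30 nucleotides, per the labels. Each library has its own table of raw counts by miRNA gene, deposited by the authors, on both strands, on the gene's strand and on the opposite strand. Per the deposited file descriptions, alignments were to mm10 with GENCODE release M4; which aligner and counter were run is not given in the sources used here. Tallies of unmapped (16.8% and 14.1%), multiply mapped (28.3% and 27.5%) and unannotated reads (4.06% and 2.91%) name no gene and were left out.

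Counts on the gene's strand were used. Symbols, positions and hosts came from GENCODE M21, on the same assembly; 1894 of 1973 identifiers matched, and the other 79 had at most 1 count. Shared stretches of at least 21 bases were sought between annotated hairpins. Mature sequences are RefSeq's, build GRCm38.p6. Detection needed 10 counts in each replicate; log values used a pseudocount of 1 CPM. With no contrast, edgeR's quasi-likelihood test could not be run. The replicates were compared by exact binomial test with TMM-scaled totals. The test was tried on simulated counts with counting error alone and unscaled totals, which does not cover the spread between these replicates. Their counts differed beyond sampling noise (chi-square of 46611, degrees of freedom 344), so the tables are not a single library deposited again; this does not show that the libraries came from different embryos. An SD here is the spread of 2 samples, part of which may be technical.

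Members and lists were chosen with earlier results of these data known. The genes named are the members, the miR-17-92 genes, the other genes of their seed families, the listed markers, and the 2 detected genes next above and below each member in mean CPM. The marker Mir142 was not analysed here. Tests ran in scipy 1.17.1 with Python 3.11.15 and in edgeR 4.0.16 with R 4.3.3; DESeq2 1.42.0 gave alternative size factors, and pandas 2.3.3, matplotlib 3.10.9 and numpy 2.4.6 served for tables and plots.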

Additional observations from a re-analysis of the deposited data

How the results depend on the processing

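No paired analysis was possible because there was only 1 group. The order of the clusters was the same under every alternative run. The log2 ratio of the Mcm7 cluster over the X-linked cluster was 4.66 without members that share sequence and 5.67 as a difference of mean log2(CPM + 1) over members, and 4.32 to 4.49 with 1 replicate left out. Leaving out the members that share sequence does not restore their lost reads. For the miR-92 seed it was 2.30 without shared members and 1.37 to 1.81 with 1 replicate left out. Over all deposited reads the shares were 0.971% for the Mcm7 cluster, 0.0456% for the X-linked cluster and 2.90% for the miR-17-92 cluster. Without shared members the X-linked cluster held 0.0734% and the miR-17-92 cluster 5.11%. With unstranded counts the miR-17-92 cluster held 5.46%. Without shared members, which takes Mir92-1 and Mir92-2 out of the family, Mir25 gave 62.6% of the miR-25/miR-92/miR-363 family and Mir363 12.7%; the miR-19 share could not be had, as its member shares sequence. The exact test with an assumed coefficient of variation passed 0 of the 9 genes and 2 of all genes, of which 2 also reached a log2 ratio of 1, against 186 and 11 with counting error alone. At a minimum of 50 counts, 5 genes reached both thresholds. Of 105 alternative values for the 21 pair differences, 5 moved by more than 1 SD and 0 changed sign. The 105 include values with 1 replicate left out, which always lie within 1 SD of the mean of 2 replicates. Those values could change sign but could not count as moved. A pseudocount cannot change the sign of a difference within a replicate. Unstranded counts of the paired genes equalled the own-strand counts, apart from 2 more for Mir25 in replicate 2. The lack of sign changes under these settings was therefore fixed in advance or nearly so. Of 53 alternative values for the members' replicate ratios, 7 no longer passed the adjusted p threshold, all under the assumed coefficient of variation, and 0 changed sign. Depth limits Mir18b and Mir19b-2 most, and Mir19b-2 is limited also by the loss of reads of its shared mature sequence.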

Other observations

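The genes nearest in level to each member, the 2 detected genes next above and below it by mean CPM over the 2 libraries, are given here as values only. Mir93 stood between Mir30a at 11164 ± 1377 CPM (SD, n = 2) and Mirlet7d at 9549 ± 2198 CPM, with Mir20a and Mir23a as the next neighbours. Mir106b stood between Mir23a at 8416 ± 328 CPM and Mir351 at 7841 ± 2387 CPM, with Mirlet7d and Mir130b beyond them. Mir25 lay between Mir503 and Mir374b, at 1097 ± 99.7 and 1041 ± 387 CPM, with Mir467c above and Mir382 below. Mir106a lay between Mir1193 at 322 ± 9.33 CPM and Mir154 at 303 ± 16.2 CPM, next to Mir148b and Mir181a-2. Mir363 had Mir341, Mir199b, Mir540 and Mir700 around it, at 197 to 221 CPM. Mir20b had Mir700, Mir874, Mir598 and Mir92b, a gene with the miR-92 seed, at 181 to 197 CPM. Mir92-2 had Mir31, Mir543, Mir185 and Mir494 at 128 to 140.2 CPM, Mir18b had Mir1198, Mir219a-1, Mir412 and Mir449a at 23.1 to 25.2 CPM, and Mir19b-2 had Mir378d, Mir2137, Mir153 and Mir1264 at 8.02 to 8.48 CPM.

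On the opposite strand the 9 genes had 0 counts in replicate 1, and in replicate 2 only Mir25 had any, with 2, below the 3 counts taken as the limit of detection.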
